A study of Ovis aries with 36 samples.

Results

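Longissimus lumborum (LL) is the lumbar part of the long muscle of the back, and it is the loin of the carcass. Its 4 samples, 1 from each of 4 lambs, were taken out of 36 samples of 9 muscles by their muscle labels, and each was set against the mean of the other 8 muscles of the same lambs. The lambs were unrelated Poll Dorset cross-breds of 14 months, with live weights between 67 and 72 kg, raised on grassland and given feed supplements, and no sample had a treatment of its own. The other muscles were the thigh muscles Rectus femoris (RF), Adductor (AD), Semitendinosus (ST), Semimembranosus (SM) and cranial Gluteobiceps (GB). With them were the rump muscle Gluteus medius (GM), Psoas major (PM) under the lumbar spine, and Supraspinatus (SS) of the shoulder. Every sample was a piece of whole muscle from the middle of its superficial belly, taken soon after slaughter, so LL is known here from 1 place in 1 muscle of 4 animals.

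Skeletal muscles differ in the share of slow fibres, which contract slowly, burn fuel with oxygen and carry their own set of myosin light chains, troponins and tropomyosin, and fast fibres, which carry another set. They also keep a record of where in the body they arose, written in part by the HOX genes, whose clusters are used in order along the axis of the embryo. LL is known as a mostly fast muscle of the back, whereas SS is known as a slow, oxidative muscle of the forelimb. The contrast therefore asks what sets the loin apart from muscles of the limbs and from the psoas beside it.

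LL libraries held between 5317026 and 6378073 counts, within the range of 3699148 to 6427422 of the other muscles. From 77.2 to 80.2% of LL counts fell in 6 loci, against 74.1 to 84% elsewhere, and the counts left outside them numbered 1191845 to 1393212 in LL. A count of 3, taken as the lowest that can be told from 0, was worth 0.478 to 0.538 CPM (counts scaled to a normalised library of 1000000) in LL, and this floor covers counting error only. Each difference is given as log2FC, the log2 fold change of LL against the mean of the 8 other muscles. It came from edgeR's quasi-likelihood test with animal in the model. Beside it stands the SE of the 4 within-animal differences of log2 CPM. The mean of these differences can lie nearer 0 than log2FC where counts are few. A locus was called at an FDR of at most 0.01 with an absolute log2FC above 1. The counted loci were assembled from the reads and carry an Ensembl gene identifier or none, and those with none are called unannotated. Gene names could be paired with loci for 28 of 344 members of the gene lists and for 0 of 104 markers of fat, vessel wall, blood, nerve, satellite cells, muscle fibres, stress and the day clock. A gene could be paired only where the study gave its position among its own results on these samples, so the paired genes are not independent evidence of a direction. The labelled tissue could thus not be checked against such markers, the share of other cells in LL was not measured, its part in the results was not tested, and in whole muscle fewer cells of a type cannot be told apart from less RNA per cell.

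LL differed from the mean of the other muscles in few loci. Of 12461 loci tested, 68 were called (0.546%), with 50 higher in LL (0.401%) and 18 lower (0.144%). The LL difference had the same sign in 4 of 4 animals for 47 of the 50 higher loci and for 18 of the 18 lower ones. Of the higher loci, 32 were unannotated (64%), against 25.4% of all loci tested, whereas 3 of the 18 lower loci were (16.7%). Each locus was counted singly here, although 10 of the 32 were neighbours in 1 stretch of chromosome 3. Whether neighbouring loci are pieces of 1 transcript was not tested. The median log2FC was 1.38 over the higher loci and -1.34 over the lower ones, beside 0.006 over all loci tested. LL had the highest mean of the 9 muscles in 47 of the 50 higher loci and the lowest in 13 of the 18 lower ones. The called loci were chosen on these same samples. Their size, their sign in each animal and the rank of LL are thus not independent evidence. Within animals, LL was the highest of the 9 muscles in 4 of 4 animals for 23 loci (0.185% of those tested), 13 of them called. It was the lowest in 4 of 4 animals for 10 loci (0.0803%), 3 of them called. The number called fell to 41 without animal 1, to 44 without SS and to 27 without the pairing by animal.

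The annotated locus that set LL apart in every comparison was ENSOARG00000011146, at chr2:248314984-248351464 of the Oar_v3.1 assembly, whose symbol the sources used here do not give. Its CPM in LL was 14.5, 25.2, 14.2 and 6.85 in animals 1 to 4, whereas the 32 other samples ran from 0 through a median of 0.868 to 4.56. All LL samples lay above all other samples. The log2FC was 3.98 ± 0.29 (SE, n = 4, FDR = 1.3e-14), and this was the only locus called higher in LL against each of the 8 muscles taken singly, with log2FC between 2.93 against PM and 4.7 against RF. The 4 LL samples exceeded all 32 others in 5 loci (0.0401% of those tested), of which 3 were called.

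The other 2 called loci of that kind were singled out after their values had been seen. One is an annotated locus at chr9:94346997-94490628, with CPM of 80, 83.2, 90.8 and 86.2 in LL and from 10.5 through 43.1 to 64.8 elsewhere. Its LL values were close together, with a mean of 85.1 ± 4.58 (SD), and the nearest muscle was AD at 60.8 ± 3.51. The log2FC was 1.1 ± 0.051 (SE, FDR = 3e-06), and with SS left out it was 0.94, below the fold threshold. The other is an annotated locus at chr6:29361947-29528208, with 9.33, 10.6, 10.5 and 9.56 CPM in LL and 2.02 to 7.12 elsewhere (log2FC 1.13 ± 0.083, FDR = 2.3e-05). An unannotated locus with the same coordinates was called as well (log2FC 1.08, FDR = 0.0053) but not with any 1 of the 4 animals, ST or SS left out, and the pair may share reads, since the sources used here do not say whether counting used the strand.

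ENSOARG00000011739, at chr8:36569062-36646572, was found in LL and PM and hardly elsewhere. Its CPM in LL was 3.77, 3.58, 7.55 and 3.19, and in PM 5.6, 5.93, 13.1 and 6.74. All 20 libraries of SM, ST, GB, GM and RF held 0 counts, so the LL mean of 4.52 CPM was at least 7.92-fold higher than the 3 counts per library that could have been told from 0. SS reached a mean of 0.142 CPM and AD 0.148 CPM, with no library above 0.263 CPM. PM lay above LL in 4 of 4 animals, but the difference did not pass over all loci (log2FC of LL minus PM -0.79, FDR = 0.21). The locus was called in LL against 7 of the 8 muscles, and the fitted log2FC of 5.9 ± 0.24 against the mean (FDR = 1.7e-10) depends on how the libraries at 0 enter the fit. The within-animal differences that gave this SE had a mean of 3.04.

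A further annotated locus, at chr12:77817796-77842494, was shared between LL and ST in the same way and was also singled out after its values had been seen. Its CPM was 87.4, 343, 173 and 101 in LL and 193, 158, 188 and 266 in ST, whereas the means of the other 7 muscles lay between 21.1 in SS and 43 in AD. It was called against 6 of the 8 muscles, with log2FC up to 3.02 against SS. Against ST, the log2FC was -0.23 (FDR = 0.83), and the LL values spread around those of ST.

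The remaining annotated loci given here as higher in LL were also chosen after their values had been seen. The locus at chr19:5149353-5338962 had 35, 35.1, 79.6 and 34 CPM in LL against a median of 19.7 and a maximum of 35.1 elsewhere (log2FC 1.23 ± 0.26, FDR = 1.3e-06). LL was the highest muscle in 4 of 4 animals, and SS the lowest at 9.83 ± 0.671 CPM. The locus at chr10:85938162-85992859 had 37.1, 81.9, 28.8 and 29 CPM in LL against a median of 17.9 and a maximum of 37 (1.12 ± 0.29, FDR = 4.5e-05), again with LL the highest in 4 of 4 animals. In both, 1 animal stood far above the other 3, and without that animal the locus was no longer called (0.96 without animal 3 on chromosome 19 and 0.81 without animal 2 on chromosome 10). The locus at chr6:39939556-40091549 was rarer, with 3.77, 1.79, 2.06 and 4.46 CPM in LL against a median of 0.719 (1.98 ± 0.22, FDR = 7.6e-06, mean within-animal difference 1.54).

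**Figure D1:**
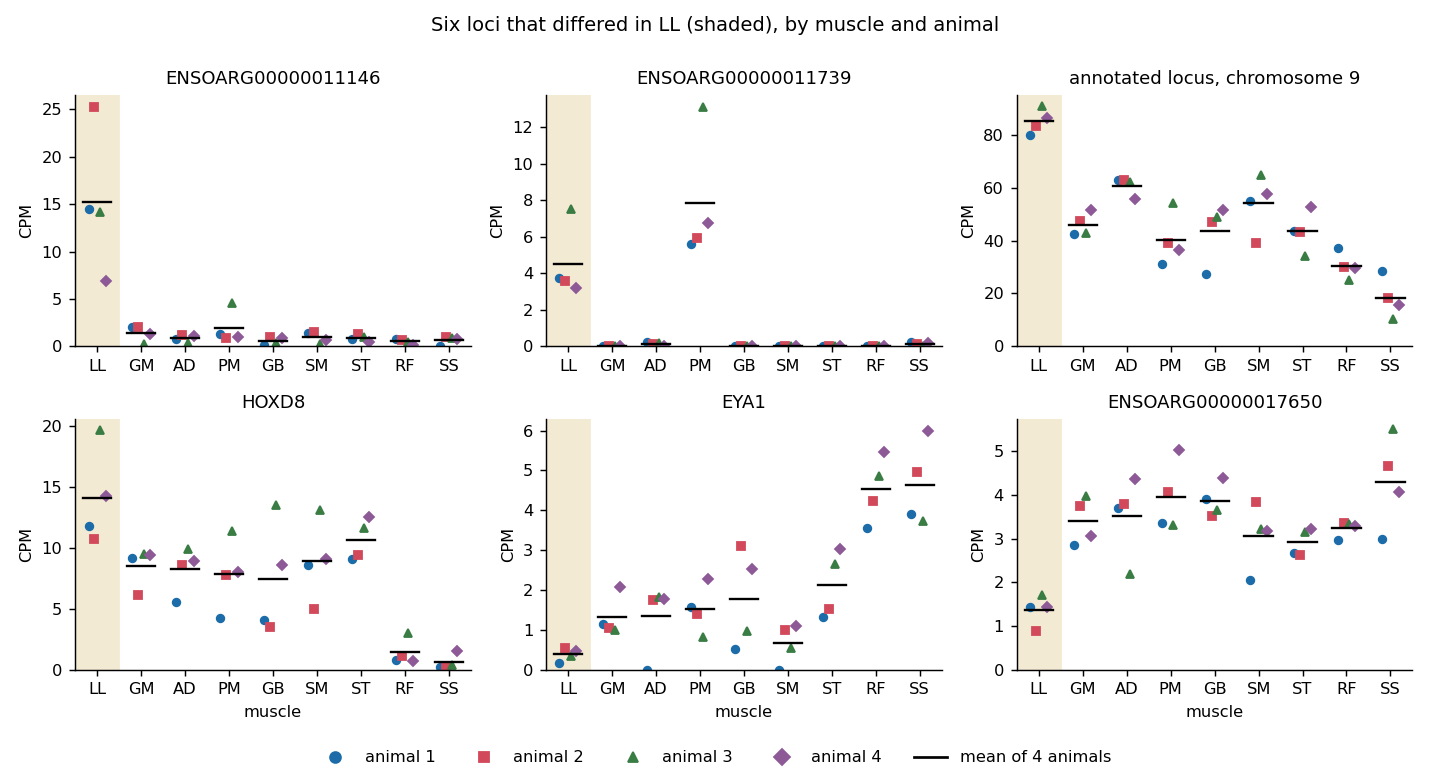
CPM (y axes, linear from 0) of 6 loci in each of 9 muscles (x axes), with 1 point per animal, a bar at the mean of 4 animals, and LL shaded. ENSOARG00000011146 stands at 6.85 to 25.2 CPM in LL and at most 4.56 elsewhere, ENSOARG00000011739 appears in LL and PM, and EYA1 and ENSOARG00000017650 are at their lowest mean in LL.

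Of the 4 position genes that could be paired with a single locus, among 76 listed, HOXD8 was called higher and EYA1 lower in LL, and HOXC10 and SIM2 did not pass. Over all loci tested, 0.401% were called higher and 0.144% lower. HOXD8, a homeobox transcription factor of the HOXD cluster (chr2:132873609-132877353), had 11.8, 10.7, 19.6 and 14.2 CPM in LL, and the other samples ran from 0.23 through 8.29 to 13.5 CPM. LL was the highest of the 9 muscles in 4 of 4 animals, although 5 of the 32 other samples lay above the lowest LL sample. HOXD8 was higher in LL by a log2FC of 1.53 ± 0.071 (SE, FDR = 1.9e-07). This difference from the mean was uneven over the muscles. RF (1.42 ± 1.07 CPM) and SS (0.606 ± 0.63 CPM) hardly had the transcript, and LL was called against these 2 muscles, by 3.28 and 4.52. Against the other 6 muscles the log2FC lay between 0.39 and 1, with FDR from 0.017 to 0.42, and none of these 6 comparisons was called.

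The nearest locus beside HOXD8, an annotated one at chr2:132882816-132884329, took the same course at lower level. It had 1.62, 3.04, 2.06 and 2.71 CPM in LL and 0 to 2 CPM elsewhere, with 5 of the 32 other samples at 0. Its log2FC was 1.75 ± 0.27 (FDR = 0.00086, mean within-animal difference 1.27), again with calls against RF (3.66) and SS (4.42). It was no longer called without animal 2 (1.61) or 4 (1.58), or without SS (1.39). The 3 loci tested on the other side of HOXD8, within chr2:132836522-132870909, had log2FC of 0.34 to 0.54 and FDR from 0.39 to 0.55, and none was called. HOXC10, the other HOX gene that could be paired with a locus (chr3:132378062-132383225), had 3.23, 1.97, 2.92 and 1.59 CPM in LL and a median of 2.83 CPM elsewhere. It did not pass (log2FC 0.63 ± 0.22, FDR = 0.15, mean within-animal difference 0.16), and LL ranked seventh of the 9 muscles by mean. All 4 SS samples were at 0, and with SS left out the log2FC was -0.23.

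EYA1, a transcriptional co-activator of muscle development (chr9:47588481-47960610), was near the detection floor in LL. Its counts in LL were 1, 3, 2 and 3, which are 0.179, 0.537, 0.343 and 0.478 CPM, and the other samples had a median of 1.76 and a maximum of 6 CPM. LL was the lowest of the 9 muscles in 3 of 4 animals. EYA1 was lower in LL with a log2FC of -2.25 ± 0.12 (FDR = 0.00073), and the within-animal differences that gave this SE had a mean of -1.53. The 9 counts in LL against 420 elsewhere gave a ratio of 0.167, with an exact 95% interval of 0.0756 to 0.319 for counting error. EYA1 was no longer called without animal 3 (-2.24) or 4 (-2.13). The muscles with the most EYA1 were SS (4.65 ± 1.05 CPM) and RF (4.53 ± 0.816 CPM), which are also those with the least HOXD8. LL was called against SS (-3.53), RF (-3.51) and ST (-2.44), and the nearest muscle was SM at 0.66 ± 0.506 CPM (-0.89, FDR = 0.41). SIM2, another transcription factor of the list, had 1.62, 0.537, 1.2 and 0.478 CPM in LL against a median of 1.02 elsewhere (log2FC -0.08, FDR = 0.99). Against single muscles SIM2 was called in both directions, as LL was lower than AD (-2.05) and SM (-1.83) and higher than ST (3.67), where 1 sample of 4 had any count. The median log2FC of the 4 genes was 0.27.

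Among the genes named in the study for LL and SS, a list chosen on these samples and so not independent evidence of direction, 9 could be paired with a single locus. Of these, 2 were called higher (HOXD8 and CHI3L1) and 2 lower (EYA1 and DLG2), beside 0.401% and 0.144% of all loci tested. The locus of CHI3L1, a secreted chitinase-like glycoprotein, joins 2 Ensembl genes at chr12:344371-366834. It had 64.4, 67.3, 82 and 79.4 CPM in LL and from 2.18 through 46 to 99.9 CPM elsewhere, so LL overlapped the others. It was called higher in LL (log2FC 1.19 ± 0.3, FDR = 0.00029), and singly against RF (20.4 ± 19.4 CPM) and SS (4.74 ± 3.62 CPM). Against the other 6 muscles the log2FC was between 0.23 and 0.97 with no call, and the locus was no longer called with SS left out (0.77) or without animal 2 (0.95) or 4 (1.16).

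DLG2, a scaffold protein of synapses (chr21:10629346-11743008), had 0.897, 1.79, 1.2 and 0.638 CPM in LL against a median of 2.98 and a maximum of 9.77 elsewhere. It was lower in LL (log2FC -1.5 ± 0.35, FDR = 0.0026), and 28 of the 32 other samples lay above the highest LL sample. LL was called against SS (-2.64), GB (-2.1) and RF (-1.75), whereas ST had 1.06 ± 0.817 CPM (log2FC 0.04, FDR = 0.98). It was no longer called without animal 1 (-1.38), 3 (-1.55) or 4 (-1.15).

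KCNMA1, the pore subunit of a calcium-activated potassium channel (chr25:32480589-33017828), had 7.54, 8.41, 8.24 and 7.01 CPM in LL, and 30 of the 32 other samples lay above all of these. Its log2FC was -0.81 ± 0.06 (FDR = 9.1e-05). LL had the lowest mean of the 9 muscles, and the gene was lower in LL by less than the fold threshold. SMYD2, a lysine methyltransferase (chr12:67363488-67418074), had 35, 30.6, 30.7 and 29.6 CPM against a median of 22.8 and was higher by 0.54 ± 0.076 (FDR = 0.0041). Without regard to fold, 1.21% of all loci tested passed the FDR, 0.843% higher and 0.369% lower in LL. KCNMA1 was called against SS and RF singly, and SMYD2 against SS alone.

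**Figure D2:**
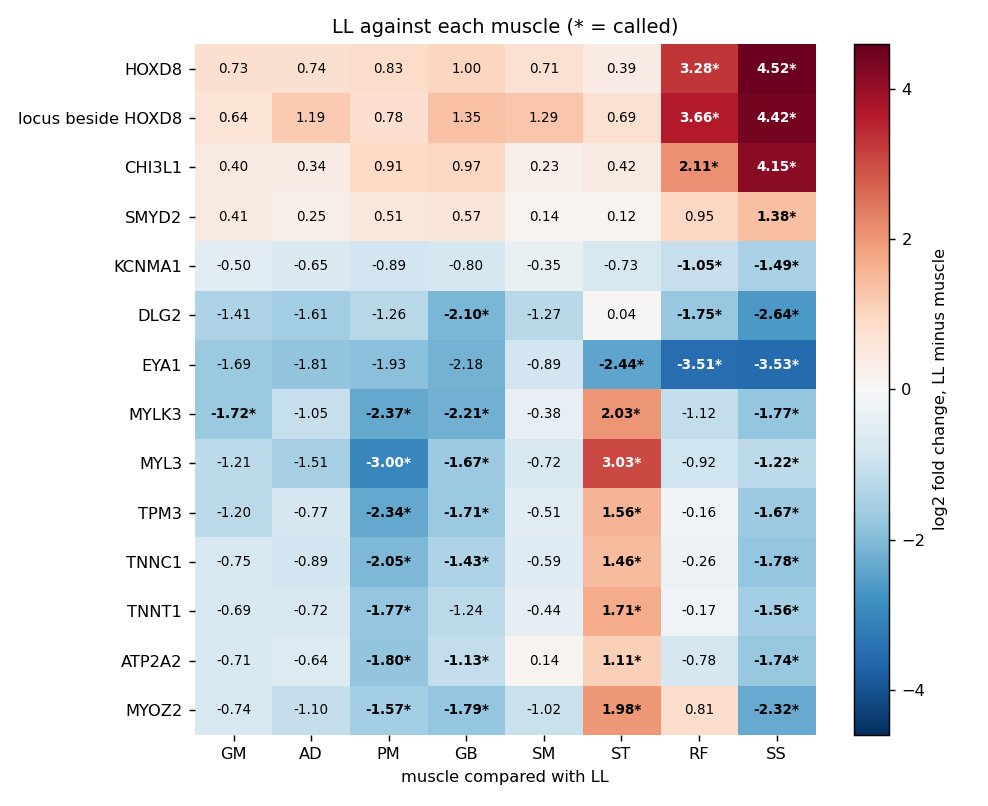
Log2 fold change of LL minus each of 8 muscles (columns) for 14 loci (rows), with red for higher and blue for lower in LL and an asterisk at an FDR of at most 0.01 with an absolute log2FC above 1. HOXD8, the locus beside it and CHI3L1 are called against RF and SS, and the slow fibre genes from MYLK3 down change sign between ST (1.11 to 3.03) and PM (-3 to -1.57).

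Slow fibre genes placed LL between ST and the slower muscles rather than apart from all. Of 20 listed genes of slow contraction and calcium handling, 11 could be paired with a single locus. The study listed all 11 among the genes most different between ST and SS in these samples, each lower in ST. A low ST and a high SS were thus set by the choice of genes. Against the mean of the other muscles 1 was called lower and 0 were called higher, beside 0.144% and 0.401% of all loci tested. The log2FC was negative for 9 of the 11, and the median was -0.72, beside 0.006 over all loci tested. The called gene was MYLK3, a myosin light chain kinase (chr14:14547940-14606419), with 4.85, 14.7, 8.24 and 4.94 CPM in LL and from 1.49 through 20.6 to 53.4 CPM elsewhere (log2FC -1.07 ± 0.34, FDR = 0.0051). Of the 32 other samples, 21 lay above the highest LL sample and 4 below the lowest. An unannotated locus with the same coordinates was also called lower (log2FC -1.82, FDR = 0.0059), and the pair may share reads.

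Taken against single muscles, the same 11 genes moved in opposite directions. Against ST, which is known as a fast muscle, 8 of 11 were called higher in LL and 0 lower, with a median log2FC of 1.62. The highest of these was MYL3, the slow essential myosin light chain (chr19:52560400-52569198), with 21, 21.6, 34.1 and 18.3 CPM in LL and 1.33, 1.09, 5.3 and 3.66 CPM in ST (3.03, FDR = 1.7e-06). Against SS, 10 of 11 were called lower and 0 higher (median -1.77), against PM 9 of 11 (-1.95) and against GB 6 of 11 (-1.24). Only MYLK3 was called against GM, and none of the 11 was called against SM, RF or AD, with medians of -0.38, -0.26 and -0.76. These comparisons share the LL samples. The 11 genes were themselves listed by the study as lower in ST than in SS in these samples. The counts against ST and SS are thus not independent evidence of direction. Over all loci tested, 0.835% were called higher in LL against ST, and the share called lower was 0.706% against ST, 1.16% against SS, 0.369% against PM, 0.297% against GB and 0.0241% against GM.

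The mean log2 CPM over the 11 genes gave the order ST (2.71 ± 0.341), LL (4.24 ± 0.54), RF (4.44 ± 0.423), SM (4.58 ± 0.569), GM (5 ± 0.355), AD (5.05 ± 0.183), GB (5.45 ± 0.177), PM (5.94 ± 0.145) and SS (6.17 ± 0.442, SD, n = 4). LL was thus next to ST, and the gap to ST was larger than the SD within either muscle. The means of RF and SM differed from that of LL by less than the SD of LL. The ends of this order, ST and SS, were set by the choice of the genes, and every other muscle lay between them. The 4 LL values were 4.32, 4.75, 4.42 and 3.48, with animal 4 the lowest, and LL spread more than any muscle but SM.

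TNNC1, the slow troponin C (chr19:48403558-48406316), had 52.9, 141, 89.6 and 34.6 CPM in LL, and TNNT1, the slow troponin T (chr14:59547242-59556889), had 68.4, 119, 81.5 and 27.4 CPM. Animal 2 was the highest and animal 4 the lowest in both, as they were for ATP2A2, the slow calcium pump of the reticulum (chr17:53803321-53860163), with 103, 201, 113 and 67.1 CPM. None of the 3 passed (log2FC -0.79, -0.61 and -0.7, with FDR of 0.067, 0.17 and 0.041). TPM3, the slow tropomyosin (chr1:103039221-103067829), came nearest, with 41.1, 49.6, 49.6 and 25.8 CPM against a median of 91.2 (log2FC -0.85 ± 0.34, FDR = 0.011). MYOZ2 (-0.72, FDR = 0.047), MYL3 (-0.9, FDR = 0.031), TNNI1 (-0.59, FDR = 0.28) and MYOM3 (-0.93, FDR = 0.079) did not pass, nor did CASQ2 (0.24, FDR = 0.63) and METTL21C (0.47, FDR = 0.67). Without animal 2 the number called lower rose to 6 of 11, and without ST in the reference it was 5. It was 0 without animal 1, 3 or 4, and also without GB, GM, SS or PM, where the log2FC of MYLK3 was -0.89, -0.96, -0.96 and -0.88.

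Of 2 loci with the coordinates of MYL2, the slow regulatory light chain (chr17:54257918-54303146), both lay low in LL and neither can be given the name. One had 7.36, 7.87, 9.1 and 3.51 CPM in LL against a median of 21 (log2FC -1.43 ± 0.36, FDR = 0.00038) and was called. The other had 23.2, 51.5, 22.7 and 15.8 CPM against 71.2 (log2FC -1.1 ± 0.4, FDR = 0.021) and was not.

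**Figure D3:**
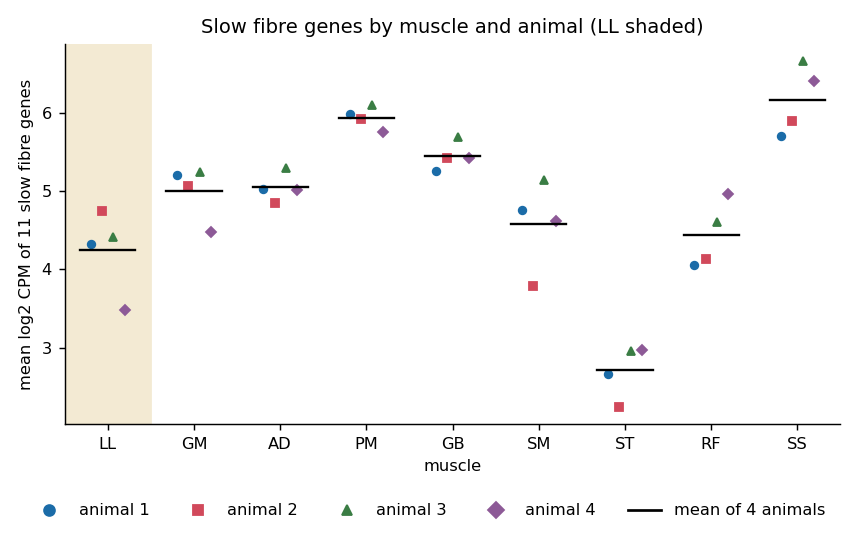
Mean log2 CPM of 11 slow fibre genes (y axis) in each of 9 muscles (x axis), with 1 point per animal, a bar at the mean of 4 animals, and LL shaded. LL (3.48 to 4.75) lies above all ST samples, among RF and SM, and below all PM and SS samples. The study listed these genes as lower in ST than in SS in the same samples.

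Other fibre lists could hardly be read, since few members could be paired. PVALB, the calcium buffer of fast fibres and the only paired member of 23 fast fibre genes, had 1, 2, 0 and 0 counts in LL, at or below the floor. Elsewhere it ran from 0 in 9 of 32 samples to 17.5 CPM. Its log2FC against the mean was -2.15, with LL the lower in 4 of 4 animals, but the test gave an FDR of 1. Under the other settings the log2FC lay between -4.02 and -1.67, and none of them called it. Taken singly, LL was called lower than RF (7.32 ± 5.41 CPM), ST (5.7 ± 2.59 CPM) and SS (5.65 ± 7.87 CPM), whereas SM, PM and AD had at most 0.342 CPM in any sample. PPP1R3D, a subunit that directs a phosphatase to glycogen, had 8.26, 7.16, 5.15 and 8.77 CPM in LL (log2FC 0.47 ± 0.16, FDR = 0.1). Of 2 loci with the coordinates of SLC16A3, the lactate exporter of fast fibres, 1 had a log2FC of 0.01 (FDR = 0.98) and the other 0.57 (FDR = 0.045). Of 2 at FABP3, the fatty acid carrier of oxidative fibres, the log2FC was -0.98 (FDR = 0.016) and -0.52 (FDR = 0.34). The pair at MYL6, a light chain of smooth muscle and other cells, gave 0.05 (FDR = 0.88) and -0.59 (FDR = 0.28).

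The annotated loci with the smallest p among those lower in LL carried no symbol in the sources used here. ENSOARG00000017650, at chr4:106086068-106090860, had 1.44, 0.894, 1.72 and 1.43 CPM in LL and from 2.05 through 3.36 to 5.51 CPM elsewhere. All LL samples lay below all other samples, one of 2 such loci (0.0161% of those tested). Its log2FC was -1.35 ± 0.19 (FDR = 6.1e-05), between -1.64 against SS and -1.08 against ST, and it was called against 5 of the 8 muscles. ENSOARG00000003815, at chr1:234263233-234289203, had 2.33, 2.68, 2.75 and 2.23 CPM in LL and from 2.36 through 5.72 to 13.6 elsewhere (log2FC -1.24 ± 0.12, FDR = 6.6e-05). LL was called against SM, ST, GB, RF and SS, whereas GM (3.53 ± 0.869 CPM) and PM (3.38 ± 0.769 CPM) were not called apart from it. A locus at chr20:49693089-49762526, chosen after its values had been seen, had 1.08, 2.15, 0.858 and 0.956 CPM in LL and reached 71.6 CPM in ST, with a log2FC of -2.17 ± 0.51 (FDR = 0.0009). SM was lower still at 1.11 ± 0.549 CPM, and the locus was no longer called without animal 1 (FDR = 0.039) or 4 (FDR = 0.019).

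The 3 unannotated loci lower in LL had few counts in the LL samples. XLOC_010843 (chr17:30515900-30517062) had 3 counts in LL animal 1 and 0 in the others, against 179 counts elsewhere, a ratio of 0.13 with an exact 95% interval of 0.0266 to 0.387 for counting error. XLOC_028265 (chr9:28685064-28686747) had 10 counts against 311, a ratio of 0.25 (0.119 to 0.466). The third was the unannotated locus at MYLK3, with 1, 4, 6 and 4 counts in LL and 551 counts elsewhere. Their FDR was 0.0034, 0.0059 and 0.0059, and leaving out single animals ended each of these calls.

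Unannotated loci made up most of what was higher in LL, and many of them lay together. With called loci of 1 direction joined where less than 100000 bases apart, 27 of the 50 higher loci fell into groups of at least 2. The 27 were not all unannotated. HOXD8 and the locus beside it were both annotated. In the pairs within chr6:29361947-29528208 and chr9:94346997-94550708 only 1 locus was unannotated. How often the loci tested lie this close was not measured. The group with the most loci was on chromosome 3, where all 10 loci tested within chr3:138819344-138863155 were unannotated and called, with log2FC from 1.96 to 2.73. The leading members were XLOC_021977 (2.23 ± 0.18, FDR = 6.6e-09), XLOC_021981 (2.5 ± 0.18, FDR = 3.6e-08) and XLOC_021980 (2.12 ± 0.25, FDR = 3e-07). The within-animal differences that gave these SE had means of 2.03, 2.07 and 1.59. Of the 10, XLOC_021976 was no longer called without animal 3 and XLOC_021982 without animal 2 or 4, and 7 were not called without the pairing by animal. Whether the 10 loci are pieces of a single transcript was not tested.

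Summed over the 10 loci, LL had 24.2, 66.5, 60.2 and 15.3 CPM in animals 1 to 4, the highest of the 9 muscles in each animal. GM followed with 8.86, 40.9, 55.6 and 12.4 CPM, and RF (2.11 ± 2.02) and SS (1.61 ± 1.29) had almost none. All 10 loci were called singly against SS, RF and ST, and 0 of them against GM or AD. Animals 2 and 3 lay above animals 1 and 4 in 9 of 9 muscles. Pooled over animals, 9 of the 32 other samples lay above the lowest LL sample.

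Apart from a group of 5 on chromosome 22, the other groups were pairs, as on chromosomes 24 and X. The pair within chr24:16492271-16506022 summed to 6.28, 4.65, 4.98 and 5.1 CPM in LL and 0.803 to 4.88 CPM elsewhere, with LL the highest muscle in 4 of 4 animals. The pair within chrX:30872798-30973970 had 9.51, 7.33, 5.49 and 5.58 CPM in LL and 0.862 to 6.22 CPM elsewhere, with LL the highest in 3 of 4 animals, and it was 2 of 21 loci tested in that span. On chromosome 24 one locus was no longer called without any 1 of the 4 animals, ST or SS, and the other without animal 1 or 3. On chromosome X neither was called without animal 1, 2 or 4, or without SS.

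A group of 5 unannotated loci on chromosome 22, within chr22:30151200-30250600, had a summed level of 419, 206, 178 and 95.2 CPM in LL, against 17.6 to 261 CPM elsewhere with a median of 113. LL was the highest muscle in 2 of 4 animals, and 19 of the 32 other samples lay above the lowest LL sample. The log2FC of the 5 loci lay between 1.06 and 1.39, and LL was called singly against RF and SS for each. Each of the 5 lost its call without animal 1. All but XLOC_017087 also lost it without animal 2, without SS, or without the pairing by animal.

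A pair of unannotated loci on chromosome 6, within chr6:43210256-43217622, rested on a single animal. XLOC_025745 had 59.9, 0.537, 0.172 and 0.159 CPM in LL, and its log2FC of 3.74 ± 0.95 (FDR = 6.6e-09, mean within-animal difference 1.24) came from animal 1. In that animal AD had 26.3 and PM 18.4 CPM, and no sample of the other 3 animals passed 1.1 CPM in any muscle. Without animal 1 the locus fell below the filter on low counts, and DESeq2 did not call it (log2FC 2.56, FDR = 0.021). It was named here after its values had been seen.

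**Figure D4:**
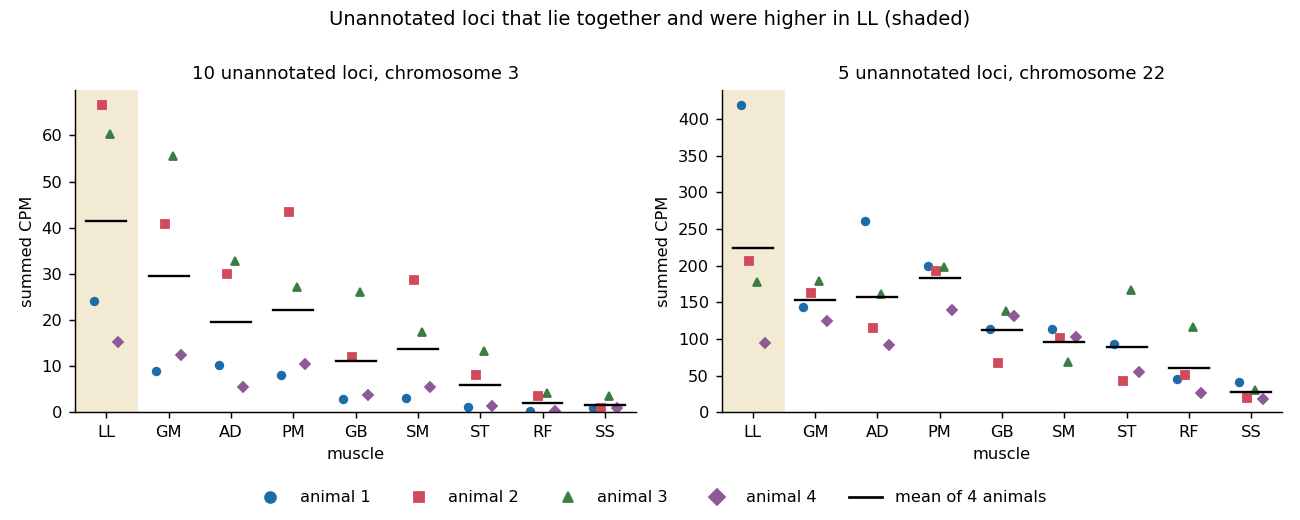
Summed CPM (y axes, linear from 0) of the called unannotated loci of chromosome 3 (left) and chromosome 22 (right) in each of 9 muscles (x axes), with 1 point per animal, a bar at the mean of 4 animals, and LL shaded. On chromosome 3 LL is the highest muscle of each animal, and on chromosome 22 the mean of 225 CPM in LL is drawn up by animal 1 at 419 CPM.

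Compared with 1 muscle at a time, the fewest loci were called between LL and AD or GM, and the most between LL and SS. Against AD, 3 loci were called (0.0241%), with 2 higher in LL (0.0161%) and 1 lower (0.00803%). Against GM, 8 were called (0.0642%), with 5 higher (0.0401%) and 3 lower (0.0241%). Against PM, 58 were called (0.465%), against GB 60 (0.482%), against RF 97 (0.778%), against SM 126 (1.01%), against ST 192 (1.54%) and against SS 301 (2.42%). At an unadjusted p below 0.05 in the same tests the numbers were closer, and the order of the muscles changed. They were 1251 against AD, 1264 against PM, 1628 against GM and 1769 against RF. Against GB the number was 1825, against ST 2085 and against SS 2522, and the highest was 2647 against SM. Unannotated loci made up 84 of the 157 loci higher in LL against SS, 61 of 104 against ST, 31 of 44 against SM and 29 of 55 against RF, but 1 of 12 against PM, 1 of 5 against GM and 0 of 2 against AD. The balance of directions differed between muscles. LL had more lower than higher loci against PM (46, or 0.369%, and 12, or 0.0963%), SM (82, or 0.658%, and 44, or 0.353%) and GB (37, or 0.297%, and 23, or 0.185%). It had more higher than lower loci against ST (104, or 0.835%, and 88, or 0.706%), RF (55, or 0.441%, and 42, or 0.337%) and SS (157, or 1.26%, and 144, or 1.16%).

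Of the 50 loci higher in LL, which were chosen by a contrast that holds the same samples, 39 were called singly against SS, 36 against RF and 29 against ST, whereas 4 were called against GM and 2 against AD. SS had the lowest mean of the other muscles in 25 of the 50, and GM the highest of them in 21. All 18 loci lower in LL were called singly against SS, 13 against GB and 11 against PM, 2 against GM and 0 against AD. None of the 18 was called against more than 5 muscles.

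**Figure D5:**
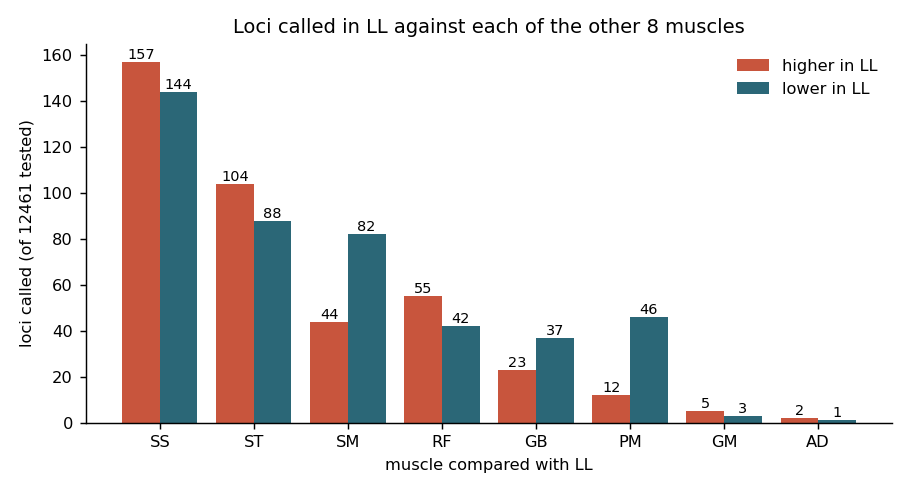
Number of loci called (y axis) in LL against each of the other 8 muscles (x axis), with bars for loci higher and lower in LL out of 12461 tested. The counts fall from 157 and 144 against SS to 2 and 1 against AD.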

How the data were processed

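Gene-level RNA-Seq was available for 36 samples, 9 muscles in each of 4 lambs. The authors aligned paired reads to Oar_v3.1 with TopHat2 2.0.13, assembled loci with Cufflinks 2.2.1 together with the Ensembl annotation, and counted reads per locus with HTSeq, and they deposited whole-number counts with no normalization. Which of the sequencing lanes held which sample is not given in the sources used here, so lanes could not be modelled. Each file lists 31530 entries for 31136 loci, and 394 repeated entries were removed.

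Loci were kept with filterByExpr by muscle and normalised by TMM, and muscle and animal were fitted with edgeR 4.0.16 in R 4.3.3. LL was tested against the mean of the other 8 muscle coefficients, and against each singly, with the quasi-likelihood test and Benjamini-Hochberg adjustment. For the SE, log2 CPM values had 2 counts added as a prior. The pairing is by animal, since each lamb gave all muscles. Deviations of samples of the same animal correlated by 0.236 on average over 144 pairs, against -0.0777 otherwise, and by 0.132 to 0.259 for LL. The 6 pairs of LL samples differed beyond counting noise (chi-square per degree of freedom 10.9 to 38.5). The fit was also run on data simulated from its own estimate of the spread, with changes put in at the more abundant loci only. Calls there used the FDR alone. The fold threshold and changes at rare loci were thus not tested.

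Files hold no symbols, and 0 identifiers matched the RefSeq table given, so names were paired through the Oar_v3.1 coordinates in the study's tables. Where several loci share them the name was not assigned, and PDLIM1 was left out because its coordinates were in doubt. Named are, among called loci with 1 sign in 4 of 4 animals, at most 2 Ensembl identifiers and 3 unannotated loci per direction with the smallest p, called list members, HOX loci, the genes named by the study for LL and SS, and up to 4 abundant members per list. All 11 slow fibre genes and the loci given by position were added. Of 10 gene lists, those of mitochondrial and of connective tissue genes had no member with coordinates, and the growth control list had 1, SMYD2. The members and lists were chosen with earlier results of these data known. The alternatives were another test (likelihood ratio), DESeq2 1.42.0, RLE, library sizes without 6 dominant loci, other filters and thresholds, no animal term, a pooled reference, and each animal or muscle left out. One gene of the lists is not reported here.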

Additional observations from a re-analysis of the deposited data

Results flagged for a closer look

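Of 95 loci checked, 4 (4.21%) had 1 animal whose LL difference stood apart from the other 3 by Dixon's criterion for 4 values, and chance alone marks about 1 in 20. At the called locus with the coordinates of MYL2, animal 4 was at -2.49 log2 CPM below the mean of its other muscles, and the other animals were between -1.16 and -0.89. At ENSOARG00000011739, animal 3 was at 3.75 and the others between 2.71 and 2.85. At the locus at chr2:37548787-37565211, lower in LL, animal 1 was at -1.53 and the others between -0.97 and -0.91. At the locus at chr3:25879082-25903038, higher in LL, animal 4 was at 1.89 and the others between 1.03 and 1.15. In each of the 4 the animal that stood apart had the same sign as the others.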

How the results depend on the processing

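With another setting, the 68 loci called against the mean numbered 67 to 92 under the likelihood ratio test, DESeq2, RLE scaling and library sizes without the 6 dominant loci. They numbered 172 with no filter on low counts, 11 with at least 10 counts in every sample (5151 loci tested), 110 at an FDR of 0.05, 151 with no fold threshold, 4 with the other muscles pooled as 1 group and 44 without SS. Without the replicate block, that is without the pairing by animal, 27 were called, and 31 against SM, 86 against ST, 18 against GB, 4 against GM, 33 against RF, 171 against SS and 27 against PM. With 1 animal left out the number ran from 41 (without animal 1) to 82 (without animal 2), and against single muscles from 44 to 169 (SM), 96 to 219 (ST), 27 to 87 (GB), 4 to 14 (GM), 55 to 131 (RF), 166 to 323 (SS), 2 to 7 (AD) and 26 to 45 (PM). The likelihood ratio test called 226 against SM, 99 against GB, 27 against GM and 11 against AD. With at least 10 counts in every sample the numbers were 71 (SM), 80 (ST), 29 (GB), 31 (RF), 137 (SS), 0 (AD) and 33 (PM), and LL was the highest muscle in every animal for 13 loci and the lowest for 5.

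Of 1432 values for called loci under the alternatives, 1142 stayed called, 290 kept the direction without the call and 0 changed direction. ENSOARG00000011146 was called in all alternatives that tested it, with log2FC from 3.86 to 4.23. Of 583 values for loci not called, 22 became called and 13 changed direction. The last were HOXC10 pooled (-0.06) and without SS (-0.23), METTL21C pooled (-0.54), a locus at SLC16A3 without SM (0), SIM2 without SM (0.17), GB (0.04), GM (0.06) or AD (0.21), and, with single animals left out, METTL21C (-0.02 to 0.67), the locus at SLC16A3 (-0.07 to 0.17), a locus at MYL6 (-0.04 to 0.11) and SIM2 (-0.25 to 0.31). The cause was not tested. Depth limits the loci near 3 counts in LL, such as EYA1, PVALB and the unannotated loci lower in LL.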
